A study of Apis mellifera with 12 samples.

Results

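Receptors of fast and modulatory synaptic transmission and other neural genes were followed through honeybee embryogenesis at 48 of the 17621 loci listed for each library. A locus was a member when its gene symbol starts with nAChR, Syt, Nlg, Nrx, Nmdar, 5-ht, Dop, Oct, mGlu, GluCl, Rdl, Grd, Lcch or unc5, whatever the case of the letters, or equals *Baiap3*. It also had to carry a single symbol and a valid status of the estimate in all 12 libraries. The 48 loci carry 41 symbols, because *Rdl* is split over 3 overlapping loci and *Dop1*, *Dop3*, *5-HT2alpha*, *Syt1* and *nAChRa7* over a pair each, which are numbered here as loci 1, 2 and 3. By role, 11 loci encode nicotinic acetylcholine receptor subunits, 6 ligand-gated chloride channel subunits, 2 NMDA receptor subunits, 2 metabotropic glutamate receptors, 5 serotonin receptors, 6 dopamine receptors and 5 neuroligins, 10 encode synaptotagmins or *Baiap3*, and 1 is *unc5-1*, a homologue of netrin receptors. A further 4 loci matched by symbol and are not members: *Nrx-1*, which has no valid estimate in the male libraries of 10-15 h, and 3 loci that join *Octbeta2R*, *NLG-4* or *nAChRa5* with another gene. No octopamine receptor and no neurexin is therefore among the members.

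The libraries were made from poly(A) RNA of wild-type whole embryos of *Apis mellifera carnica*, the Carniolan honeybee, of both sexes and 3 ages, and each of these 6 groups holds 2 libraries. A library is a pool from 3 mothers of 100 embryos at 10-15 h, 60 embryos at 25-40 h or 30 embryos at 55-70 h. The methods of the study describe females as diploid offspring of mated queens and males as haploid offspring of unmated queens treated with carbon dioxide, so the sex of the embryos and the kind of mother cannot be told apart. Eggs are labelled as collected at 5-15 h after deposition, and the age of the youngest group rests on its label. Nothing in the labels tells whether the 2 pools of a group are separate collections, and the p-values therefore rest on a spread between libraries that may be technical. Whole embryos were not sorted, and fewer cells of a type cannot be told apart from less RNA per cell.

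Neurons signal at synapses, where a transmitter released from vesicles opens ion channels or acts on G protein-coupled receptors of the next cell. In insects acetylcholine is the main fast excitatory transmitter of the central nervous system and acts on nicotinic receptors, which are channels of several subunits, whereas GABA and glutamate can open chloride channels that inhibit. Dopamine and serotonin modulate neurons through G protein-coupled receptors. Synaptotagmins are membrane proteins with C2 domains, several of which sense calcium in vesicle release, neuroligins are adhesion proteins of the synapse that bind neurexins, and UNC5 proteins are netrin receptors that guide growing axons and migrating cells.

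Levels were deposited as FPKM, the fragments of a locus scaled to its length and to the mapped fragments of the library, and differences are given on the scale of log2(FPKM + 1). The 10105 loci whose mean reached 1 FPKM and whose status was valid throughout were fitted together with limma, with p-values adjusted over all of them and a threshold of 0.05. Of the members 30 were in that fit, and the other 18, with lower means, are described by their levels. Between 7392 and 11048 loci per library reached 1 FPKM, the relative depth estimated from the confidence bounds lay between 0.877 and 1.22, and over the 48 members the log2 values of the libraries of a group correlated at 0.977 to 0.99. Loci of 1 or a few FPKM remain imprecise, and the number of reads is unknown.

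*5-HT2alpha* locus 2 was set apart. All of its 12 values, between 77.8 and 187 FPKM, lie above their own upper confidence bound, and *5-HT2alpha* locus 1, which covers almost the same stretch of chromosome 9 (7422712 to 7445927 against 7422717 to 7444606), had a mean of 0.783 FPKM. The level of locus 2 is therefore not read here as expression of a serotonin receptor, though it stays among the 30 tested members. A value outside its bounds is not rare by itself. In each library 23.3% to 28.7% of the valid loci at 1 FPKM or more lie outside theirs. Among the other members *Baiap3* lies below its lower bound in 3 libraries and none lies above, and 29 of the 576 values, at 10 members, are listed at 0.

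Members lie on 15 of the 16 chromosomes, with 13 of the 48, or 27.1%, on chromosome 9, which holds 4.59% of all loci. The nicotinic subunits *nAChRa9* (10548940 to 10551952) and *nAChRb2* (10552430 to 10554574) are neighbours there, 477 bases apart, and *NLG-3* (7505817 to 7756399) ends 183 bases before *NLG-1* (7756583 to 7827975). Coordinates are those of the deposited files, whose build was not given in the sources used. The files give no strand, and reads of overlapping loci may have been divided in either way. *nAChRa1* (6702582 to 6791431) and *nAChRa2* (6647469 to 6651370) both lie on chromosome 9 inside LOC726167, which had a mean of 76.7 FPKM.

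**Figure D1:**
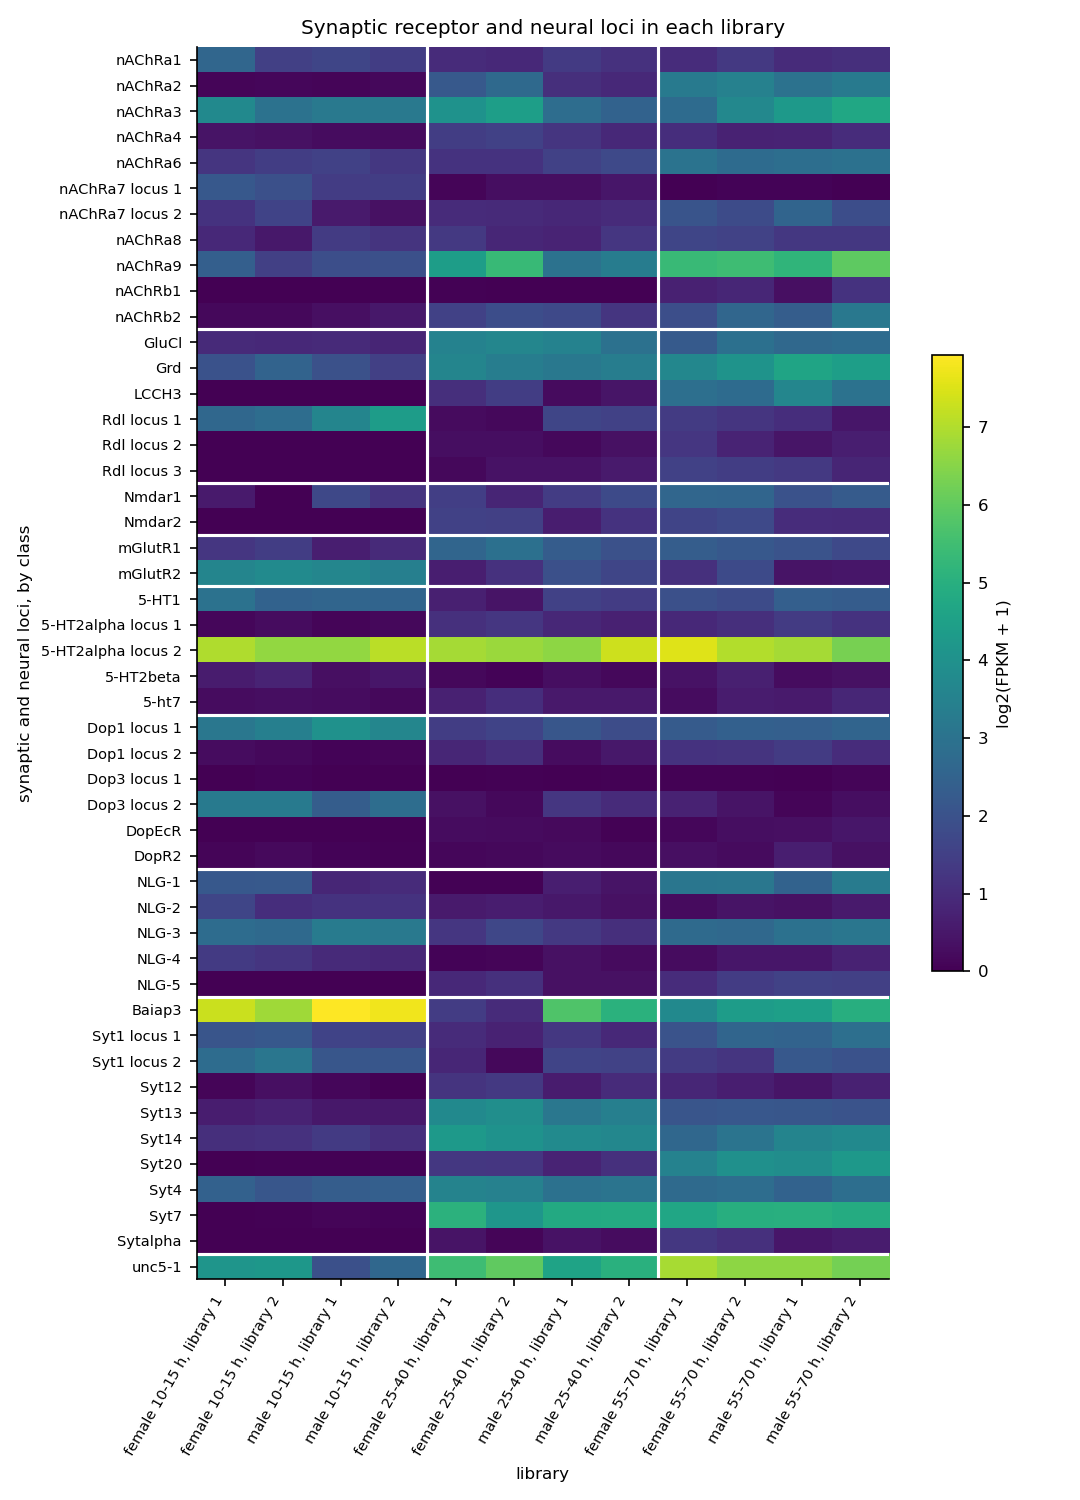
Heat map of log2(FPKM + 1) at the 48 synaptic and neural loci (rows, by class) in the 12 libraries (columns, by age, sex and replicate). White lines separate classes and ages. *Baiap3* is bright at 10-15 h and dark in the female libraries of 25-40 h, *unc5-1* and *nAChRa9* brighten with age, and most dopamine receptor rows stay dark.

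Onset was described as the first age at which both libraries of a sex reached 1 FPKM, with no test. Since 10-15 h is the first age sampled, members at that level there may have reached it earlier, and their onset cannot be dated. Some of them, such as *Baiap3* and *mGlutR2*, had their highest levels at that age, whereas others, such as *Grd* and *unc5-1*, rose later. In females 24 of the 48 members had reached that level at 10-15 h, 11 followed at 25-40 h and 6 at 55-70 h, and 7 did not reach it. The corresponding numbers in males were 22, 5, 8 and 13. Onset was at the same age, or not reached, in both sexes for 33 members and differed for the other 15. Of these, 13 came earlier in females or were reached in females alone, among them *LCCH3*, *nAChRa2*, *nAChRa4* and *Syt20* with an onset at 25-40 h in females. These are 27.1% of the members, against 8.1% of all loci with a valid status, and 9.9% of all loci came earlier in males or were reached in males alone. With median-ratio scaling 8 members, or 16.7%, came earlier in females or were reached in females alone and 3 in males, against 8.6% and 6.6% of all loci, and the females then had 7 members with an onset at 25-40 h and 12 not reached. *Nmdar1* and *nAChRa8* had reached the level at 10-15 h in males and reached it at 55-70 h in females. *NLG-4*, which was at 1.54 and 1.33 FPKM in females of 10-15 h, had 0.928 and 0.841 FPKM in males, so that small differences around the level can decide an onset. At any one age the number of members at 1 FPKM or more in both libraries was 24, 22 and 34 in females and 22, 22 and 29 in males, which is 50%, 45.8% and 70.8% of the members in females and 45.8%, 45.8% and 60.4% in males. Over all loci with a valid status these shares were 39.3%, 48% and 55% in females and 41.8%, 48.9% and 56.6% in males. By class, 6 of the 11 nicotinic subunits had reached the level at 10-15 h in each sex, and another 3 reached it at 25-40 h in females and 1 in males. Of the 10 synaptotagmin and *Baiap3* loci, 5 had reached the level at 10-15 h in each sex, 4 followed at 25-40 h in females and 2 in males, and of the 5 neuroligins 4 had reached it at 10-15 h in females and 2 in males.

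Changes between successive ages were tested over the mean of the sexes. From 10-15 h to 25-40 h, 13 of the 30 tested members rose and 11 fell, or 43.3% and 36.7%, against 47.6% and 23.6% of all loci tested, and the median difference was 0.11 over the members and 0.50 over all loci. From 25-40 h to 55-70 h, 17 rose and 4 fell, or 56.7% and 13.3%, against 36.4% and 19% of all loci, with medians of 0.74 and 0.23. The libraries of 25-40 h enter both comparisons, which are therefore not independent of each other. Each sex alone was read as a contrast of the same fit of all 12 libraries, so its p-values rest on the spread of both sexes. In females alone 14 members rose and 11 fell early and 15 rose and 5 fell late, against 45.6% and 19.5%, and 25.4% and 15.5%, of all loci. In males alone 12 rose and 7 fell early and 14 rose and 4 fell late, against 36.3% and 20.4%, and 32.7% and 13.5%. With median-ratio scaling the medians over all loci were 0.0777 and 0.00126, so the size of a difference depends on the scaling. That scaling called 3864 of all loci higher and 3708 lower in the early step, against 4812 and 2383 as deposited. In the late step it called 3055 higher and 3009 lower, against 3674 and 1920. Of the members, 12 were then higher and 12 lower early, and 14 and 5 late. Values are given below for library 1 and library 2 of a group, first of the females and then, after "against", of the males.

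**Figure D2:**
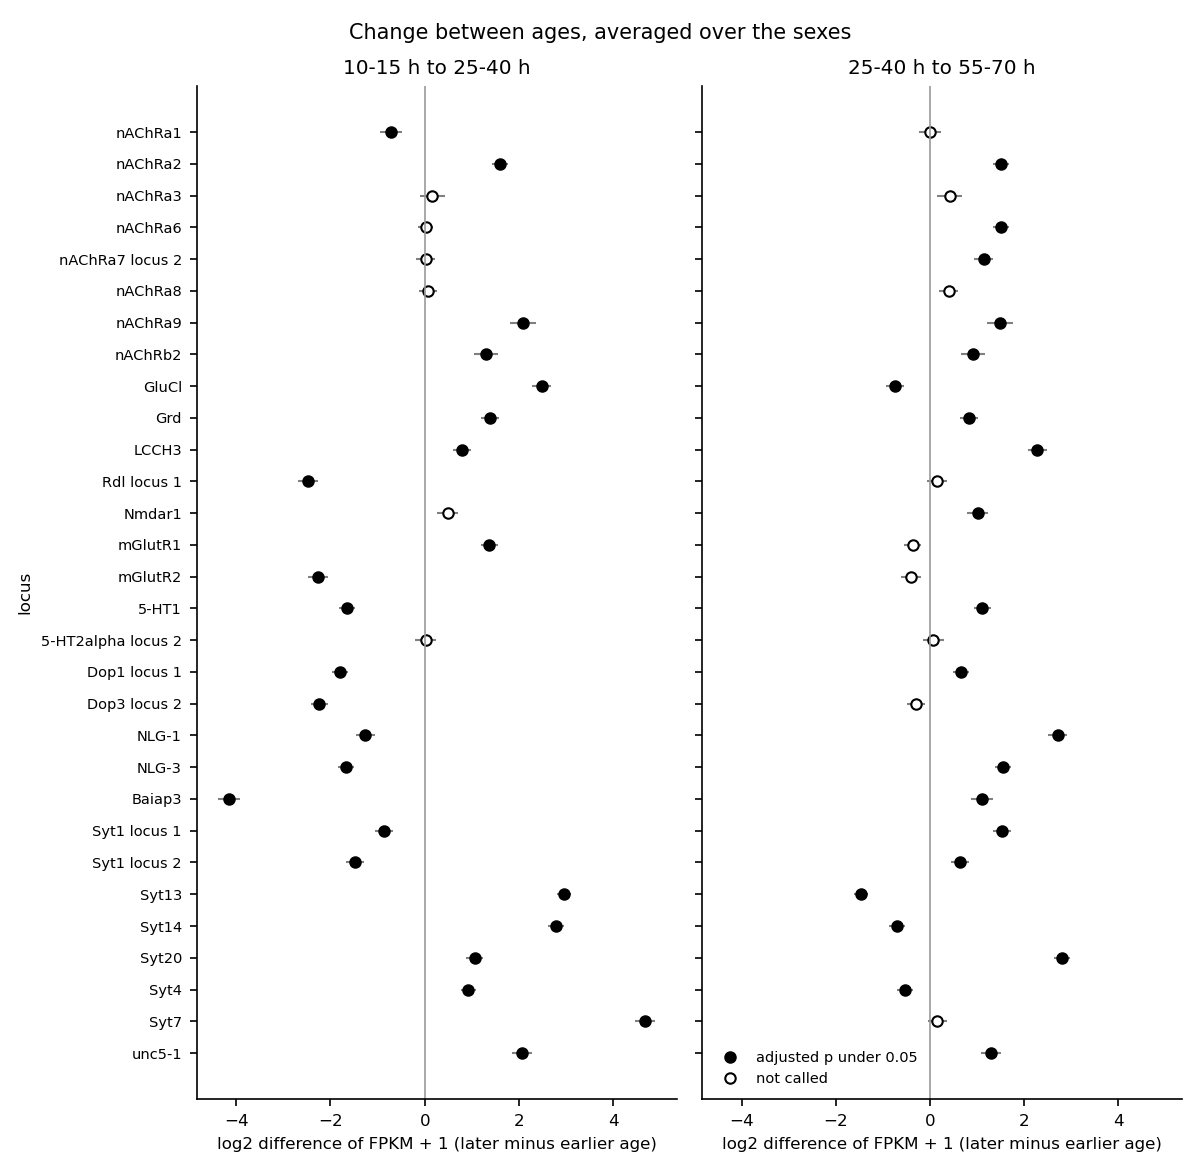
Change of log2(FPKM + 1) between successive ages, averaged over the sexes, at the 30 tested loci (rows, by class). Points are the differences, bars their standard errors, and filled points have an adjusted p under 0.05. *Syt7* has the highest and *Baiap3* the lowest point in the early change, and most filled points of the late change lie to the right of 0.

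Several nicotinic receptor subunits rose in each step, and at 25-40 h the sum over the class, though not every subunit, was higher in both female libraries than in both male ones. Of the 8 tested, 3 rose and 1 fell in the early change, against 47.6% and 23.6% of all loci, and 5 rose and none fell in the late one, against 36.4% and 19%. In females alone 3 rose and 1 fell in each step, against 45.6% and 19.5% of all loci early and 25.4% and 15.5% late. In males alone 3 rose early and 6 late and none fell. Of all loci, 36.3% rose and 20.4% fell early and 32.7% rose and 13.5% fell late in males. The sum over all 11 loci was 18.1 to 29.5 FPKM per library in females of 10-15 h, 47.8 to 74.6 FPKM at 25-40 h and 72.5 to 84.2 FPKM at 55-70 h. In males it was 18.3 to 19.2, 23.04 to 23.15 and 79.3 to 117.5 FPKM at these ages, so that the sums of the sexes are apart at 25-40 h and overlap at the other ages. *nAChRa9* and *nAChRa3*, the loci of highest mean, weigh most in these sums. The median of the member means at 25-40 h was 1.226 FPKM in females and 1.115 FPKM in males. *nAChRa1* and *nAChRa6* were then lower in both female libraries than in both male ones, and *nAChRa2*, *nAChRa3*, *nAChRa4* and *nAChRa9* higher. *nAChRa9* held the highest mean of the class and had 4.31 and 1.84 against 2.75 and 2.84 FPKM at 10-15 h, 20.5 and 39.4 against 6.86 and 9.11 FPKM at 25-40 h, and 40.3 and 43.4 against 35.4 and 61.6 FPKM at 55-70 h. It rose by 2.08 (standard error 0.28, adjusted p = 5.22e-05) and then by 1.48 (standard error 0.28, adjusted p = 0.00103), with no overlap between the youngest and the middle age in either sex. In females alone the late difference was 0.54 (adjusted p = 0.298), against 2.42 in males (adjusted p = 0.000537).

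*nAChRa2*, an alpha subunit, had 0.0724 and 0.1 against 0.079 and 0.132 FPKM at 10-15 h, 3.67 and 5.55 against 1.1 and 0.876 FPKM at 25-40 h, and 8.51 and 10.2 against 6.89 and 8.35 FPKM at 55-70 h. It was close to 0 in all libraries of the first age and rose in both steps, by 1.60 (standard error 0.18, adjusted p = 1.21e-05) and 1.51 (standard error 0.18, adjusted p = 3.73e-05). LOC726167, in which it lies, had 85.3 to 117 FPKM at 10-15 h, 59.2 to 94.5 FPKM at 25-40 h and 23.3 to 82.7 FPKM at 55-70 h. The beta subunit gene *nAChRb2* rose by 1.29 and 0.92 (adjusted p = 0.000822 and 0.0101), with a range of 0.121 to 0.44 FPKM at 10-15 h and 2.72 to 8.09 FPKM at 55-70 h. Its early call was lost with quantile normalization (adjusted p = 0.165), and its late call with median-ratio scaling (adjusted p = 0.056), quantile normalization (adjusted p = 0.47) and in females alone (adjusted p = 0.235).

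*nAChRa6* was called in the late step alone. Its values were 1.35 and 1.72 against 1.87 and 1.46 FPKM at 10-15 h, 1.22 and 1.24 against 1.87 and 2.38 FPKM at 25-40 h, and 7.08 and 5.89 against 6.26 and 6.77 FPKM at 55-70 h. All 4 libraries of the last age lie above the other 8, and the late rise was 1.51 (standard error 0.16, adjusted p = 2.09e-05). *nAChRa7* locus 2 also rose late, by 1.14 (adjusted p = 0.000721), to between 2.52 and 4.92 FPKM, a call lost with quantile normalization (adjusted p = 0.0744). *nAChRa7* locus 1, which overlaps it and was not tested, had 1.64 to 3.58 FPKM at 10-15 h and at most 0.0455 FPKM at 55-70 h.

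*nAChRa3* was the nicotinic subunit with the highest level at 10-15 h, and its course differed between the sexes. It had 12.5 and 6.88 against 8.22 and 8.27 FPKM at 10-15 h, 15.3 and 21.0 against 6.1 and 4.62 FPKM at 25-40 h, and 5.8 and 12 against 18.3 and 25.2 FPKM at 55-70 h. Averaged over the sexes neither change was called (0.16 and 0.41, adjusted p = 0.593 and 0.199), while from 25-40 h to 55-70 h it fell by 1.01 in females (adjusted p = 0.0488) and rose by 1.83 in males (adjusted p = 0.00205). One end of *nAChRa3* overlaps LOC725963, which had 25.0 and 21.2 against 12 and 13.2 FPKM at 25-40 h.

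The remaining nicotinic subunits had low levels. *nAChRa1* fell in the early step by 0.71 (adjusted p = 0.0191), from 1.73 to 5.07 FPKM to 0.89 to 1.56 FPKM, and this call was lost without female library 1 of 10-15 h (adjusted p = 0.0618), without male library 1 of 10-15 h (adjusted p = 0.0634), without male library 2 of 25-40 h (adjusted p = 0.0572) and in males alone (adjusted p = 0.462). *nAChRa8* was not called in either step (0.07 and 0.39) and ranged from 0.415 to 2.18 FPKM. Of the untested members *nAChRa4* stayed between 0.169 and 1.92 FPKM, and *nAChRb1* was listed at 0 in all libraries of 10-15 h and reached 0.261 to 1.25 FPKM at 55-70 h.

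The chloride channel subunits did not follow a common course. *GluCl*, a glutamate-gated chloride channel subunit, had 0.914 and 0.902 against 0.932 and 0.779 FPKM at 10-15 h, 10.5 and 11.3 against 10.3 and 6.69 FPKM at 25-40 h, and 3.77 and 6.55 against 5.38 and 5.83 FPKM at 55-70 h. It rose by 2.49 (standard error 0.20, adjusted p = 1.14e-06) and fell by 0.74 (standard error 0.20, adjusted p = 0.00886), so that the middle age stands above both others. The late call was lost in males alone (-0.50, adjusted p = 0.175), and LOC100576510, which overlaps one end of *GluCl*, also went from 1.21 to 1.88 FPKM at the first age to 8.28 to 15.0 FPKM at the second.

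*Grd* and *LCCH3*, whose *Drosophila* homologues are subunits related to the GABA receptor, rose in both steps. *Grd* had 3.02 and 4.71 against 2.87 and 1.83 FPKM at 10-15 h, 11.3 and 9.33 against 7.99 and 9.26 FPKM at 25-40 h, and 11.8 and 15.9 against 23.8 and 20.6 FPKM at 55-70 h. It rose by 1.38 (standard error 0.19, adjusted p = 7.92e-05) and 0.83 (standard error 0.19, adjusted p = 0.00433), and the late call was lost in females alone (0.39, adjusted p = 0.29) and with quantile normalization (adjusted p = 0.0698). *LCCH3* was listed at 0 in all 4 libraries of 10-15 h, had 1.1 and 1.72 against 0.164 and 0.352 FPKM at 25-40 h, and 6.39 and 5.84 against 11.5 and 6.94 FPKM at 55-70 h. Its differences were 0.79 (standard error 0.19, adjusted p = 0.00357) and 2.28 (standard error 0.19, adjusted p = 3.49e-06), and the early call was lost in males alone (0.33, adjusted p = 0.334) and with a pseudocount of 5 (adjusted p = 0.0888).

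*Rdl* encodes a GABA-gated chloride channel subunit, and its 3 overlapping loci went different ways. *Rdl* locus 1 had 5.29 and 6.08 against 11.2 and 19.7 FPKM at 10-15 h, 0.176 and 0.117 against 2.14 and 1.87 FPKM at 25-40 h, and 1.57 and 1.36 against 1.06 and 0.396 FPKM at 55-70 h. It fell early by 2.47 (standard error 0.21, adjusted p = 1.85e-06), with no library of the later ages as high as any of 10-15 h. The late change was 0.14 on average and not called, with a rise of 1.10 in females (adjusted p = 0.0136) and a fall of 0.83 in males (adjusted p = 0.0432). *Rdl* locus 3 was listed at 0 in all libraries of 10-15 h and reached 0.784 to 1.89 FPKM at 55-70 h, and *Rdl* locus 2 reached 0.377 to 1.36 FPKM.

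Of the glutamate receptors, the NMDA receptor subunits stayed at or below 5.18 FPKM in all libraries. *Nmdar1* had 0.477 and 0.0088 against 2.26 and 1.36 FPKM at 10-15 h, 1.76 and 0.753 against 1.68 and 2.42 FPKM at 25-40 h, and 5.18 and 5.06 against 3.02 and 3.81 FPKM at 55-70 h. It rose in the late step by 1.01 (standard error 0.22, adjusted p = 0.00291), a call that was lost in males alone (0.54, adjusted p = 0.189) and with quantile normalization (adjusted p = 0.172). *Nmdar2*, whose mean of 0.998 FPKM fell just short of the filter, had 0.0153 to 0.019 FPKM in all libraries of 10-15 h, 1.9 and 1.81 against 0.561 and 1.24 FPKM at 25-40 h, and 2.11 and 2.33 against 1.01 and 0.95 FPKM at 55-70 h.

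The 2 metabotropic glutamate receptors moved in opposite directions in the early step. *mGlutR1* had 1.39 and 1.72 against 0.572 and 0.936 FPKM at 10-15 h, 5.04 and 6.64 against 3.97 and 2.87 FPKM at 25-40 h, and 4.01 and 3.54 against 3.1 and 2.39 FPKM at 55-70 h, and it rose early by 1.37 (standard error 0.18, adjusted p = 4.79e-05), a call lost with quantile normalization (adjusted p = 0.0598). *mGlutR2* had 11.1 and 12.9 against 11.6 and 9.78 FPKM at 10-15 h, 0.59 and 1.19 against 2.86 and 2.15 FPKM at 25-40 h, and 1.12 and 2.45 against 0.337 and 0.399 FPKM at 55-70 h. It fell early by 2.27 (standard error 0.21, adjusted p = 2.97e-06), and in males it fell further in the late step, by 1.35 (adjusted p = 0.00329).

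Of the 4 tested amine receptor loci, 3 fell from the first age to the second, against 23.6% of all loci. *5-HT1*, a serotonin receptor, had 6.93 and 4.59 against 5.02 and 4.9 FPKM at 10-15 h, 0.625 and 0.327 against 1.87 and 1.65 FPKM at 25-40 h, and 2.86 and 2.52 against 4.27 and 3.98 FPKM at 55-70 h. It fell by 1.65 (standard error 0.17, adjusted p = 8.97e-06) and rose by 1.11 (standard error 0.17, adjusted p = 0.000311), and both changes were called in each sex alone. Of the other serotonin receptor loci, *5-HT2alpha* locus 1 went from at most 0.201 FPKM at 10-15 h to 0.883 to 1.6 FPKM at 55-70 h, *5-HT2beta* stayed at or below 0.73 FPKM and *5-ht7* reached at most 1.03 FPKM. *5-HT2alpha* locus 2, with its doubtful level, had 124 and 99.5 against 99.1 and 137 FPKM at 10-15 h, 114 and 105.1 against 94.4 and 157 FPKM at 25-40 h, and 187 and 129.6 against 116 and 77.8 FPKM at 55-70 h, and neither change was called (0.02 and 0.07).

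Both tested dopamine receptor loci had their highest levels in the youngest embryos. *Dop1* locus 1 had 7.86 and 9.75 against 15.3 and 11.4 FPKM at 10-15 h, 1.7 and 2.04 against 3.39 and 2.58 FPKM at 25-40 h, and 3.85 and 4.4 against 4.27 and 4.83 FPKM at 55-70 h. It fell by 1.81 (standard error 0.17, adjusted p = 4.29e-06) and rose by 0.66 (standard error 0.17, adjusted p = 0.00775), and the late call was lost with median-ratio scaling (adjusted p = 0.1) and in males alone (adjusted p = 0.13), and the direction turned with quantile normalization (-0.02, adjusted p = 0.921). *Dop1* locus 2, a locus of 2000 bases inside it, went the other way, from at most 0.198 FPKM at 10-15 h to 1 to 1.6 FPKM at 55-70 h. *Dop3* locus 2 had 8.69 and 8.57 against 4.08 and 6.13 FPKM at 10-15 h, 0.282 and 0.132 against 1.36 and 0.981 FPKM at 25-40 h, and 0.68 and 0.338 against 0.0666 and 0.235 FPKM at 55-70 h. It fell early by 2.24 (standard error 0.18, adjusted p = 1.38e-06) in both sexes and, in males alone, also late, by 0.91 (adjusted p = 0.0148). *DopR2* had at most 0.586 FPKM, *DopEcR*, listed at 0 in all libraries of 10-15 h, at most 0.399 FPKM and *Dop3* locus 1 at most 0.079 FPKM.

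Both tested neuroligins were lowest at 25-40 h. *NLG-1* had 3.55 and 3.66 against 0.788 and 0.973 FPKM at 10-15 h, 0.0372 and 0.0405 against 0.589 and 0.335 FPKM at 25-40 h, and 7.56 and 7.83 against 4.65 and 8.86 FPKM at 55-70 h. Its early fall of 1.26 (standard error 0.20, adjusted p = 0.000183) was not called in males alone (-0.37, adjusted p = 0.29), and its late rise of 2.71 (standard error 0.20, adjusted p = 1.21e-06) was called in each sex. *NLG-3*, its neighbour on chromosome 9, had 5.95 and 5.58 against 8.73 and 8.31 FPKM at 10-15 h, 1.39 and 2.2 against 1.49 and 1.08 FPKM at 25-40 h, and 5.71 and 5.45 against 6.75 and 7.66 FPKM at 55-70 h. It fell by 1.68 (standard error 0.17, adjusted p = 5.46e-06) and rose by 1.55 (standard error 0.17, adjusted p = 1.96e-05), and the libraries of 25-40 h overlap with neither of the other ages. Of the untested neuroligins, *NLG-2* and *NLG-4* had their highest levels at 10-15 h (1.07 to 2.16 and 0.841 to 1.54 FPKM), whereas *NLG-5* had at most 0.0172 FPKM at that age and 1.01 to 1.93 FPKM at 55-70 h.

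Synaptotagmins and *Baiap3* held both the largest rise and the largest fall among the 30 tested members. All 8 tested loci changed in the early step, 5 upward and 3 downward, against 47.6% and 23.6% of all loci. *Syt7*, in mammals a calcium sensor of slow vesicle release, had 0 and 0.0372 against 0.0689 and 0.0464 FPKM at 10-15 h, 33.5 and 17.1 against 27.0 and 27.5 FPKM at 25-40 h, and 25.1 and 30.5 against 31.0 and 28.1 FPKM at 55-70 h. It was thus near 0 in all libraries of the first age and between 17.1 and 33.5 FPKM in all others, with an early rise of 4.68 (standard error 0.21, adjusted p = 1.97e-08) and a late difference of 0.16 (adjusted p = 0.546). LOC412436, which overlaps a part of it, had 0.731 to 2.4 FPKM at the first age and 4.43 to 15.1 FPKM at the later ones.

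*Syt13* and *Syt14* rose early and fell late. *Syt14* had 1.12 and 1.19 against 1.55 and 1.11 FPKM at 10-15 h, 18.6 and 15.6 against 12.7 and 11.6 FPKM at 25-40 h, and 5.25 and 7.25 against 10.9 and 12.5 FPKM at 55-70 h. It rose by 2.79 (standard error 0.17, adjusted p = 1.53e-07) and fell by 0.69 (standard error 0.17, adjusted p = 0.00525). The late difference was -1.33 in females (adjusted p = 0.00136) and -0.06 in males (adjusted p = 0.868). *Syt13* went from 0.429 to 0.676 FPKM to 7.79 to 14.0 FPKM and back to 3.11 to 3.44 FPKM, with changes of 2.96 and -1.46 (adjusted p = 5.46e-08 and 1.79e-05). *Syt4* followed the same order with smaller changes, 0.93 and -0.54 (adjusted p = 0.000413 and 0.0172). Its early call was lost with median-ratio scaling (adjusted p = 0.0633) and quantile normalization (adjusted p = 0.246), and its late call without female library 1 of 55-70 h (adjusted p = 0.0508), without the libraries of 10-15 h (adjusted p = 0.0528) and in males alone (adjusted p = 0.272).

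*Syt20* rose in both steps. It had 0.012 and 0.025 against 0.0349 and 0.0563 FPKM at 10-15 h, 1.45 and 1.37 against 0.713 and 1.16 FPKM at 25-40 h, and 10.5 and 14.7 against 13.8 and 17.9 FPKM at 55-70 h. The changes were 1.06 (standard error 0.18, adjusted p = 0.000312) and 2.80 (standard error 0.18, adjusted p = 4.69e-07), with no overlap between ages. Of the untested synaptotagmins, *Syt12*, which starts 6860 bases after *Syt13*, had 0.524 to 1.49 FPKM at 25-40 h, and *Sytalpha*, listed at 0 in all libraries of 10-15 h, had 0.405 to 1.45 FPKM at 55-70 h.

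*Syt1* encodes the calcium sensor of fast transmitter release, and both of its overlapping loci were lowest at 25-40 h. *Syt1* locus 1 had 3.29 and 3.52 against 2.04 and 1.82 FPKM at 10-15 h, 0.974 and 0.695 against 1.42 and 0.865 FPKM at 25-40 h, and 3.09 and 4.96 against 4.8 and 6.49 FPKM at 55-70 h. *Syt1* locus 2 had 6.04 and 7.62 against 3.37 and 3.34 FPKM at 10-15 h, 0.816 and 0.12 against 2.11 and 1.99 FPKM at 25-40 h, and 1.59 and 1.31 against 3.57 and 2.95 FPKM at 55-70 h. Locus 1 fell by 0.86 (standard error 0.19, adjusted p = 0.00198) and rose by 1.53 (standard error 0.19, adjusted p = 6.28e-05), and locus 2 fell by 1.48 (standard error 0.19, adjusted p = 4.3e-05) and rose by 0.63 (standard error 0.19, adjusted p = 0.0172). The early fall was not called in males alone at either locus (adjusted p = 0.171 and 0.13), and the late rise of locus 2 was lost with median-ratio scaling (adjusted p = 0.072), without female library 1 of 55-70 h (adjusted p = 0.0516) and in males alone (adjusted p = 0.176), and turned to -0.01 with quantile normalization (adjusted p = 0.978). Since the loci share part of their length, their reads may have been divided between them in either way.

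*Baiap3*, in mammals a C2 domain protein of dense-core vesicle release, was the most abundant member of its class in the youngest embryos. It had 155 and 111 against 242 and 214 FPKM at 10-15 h, 1.65 and 0.962 against 52.3 and 32.5 FPKM at 25-40 h, and 12.7 and 20 against 21.1 and 30.6 FPKM at 55-70 h. It fell early by 4.15 (standard error 0.23, adjusted p = 9.35e-08), in females by 5.86 and in males by 2.44 (adjusted p = 2.03e-07 and 0.000136). The late change averaged 1.11 (adjusted p = 0.00222), but it was a rise of 2.89 in females (adjusted p = 6.33e-05), and in males alone the value was -0.68 (adjusted p = 0.12). A locus that joins LOC100577150 and *SP48* overlaps *Baiap3* on chromosome 8 and had 5.78 and 2.0 against 12.7 and 9.2 FPKM at 25-40 h.

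*unc5-1* rose in both steps and had the highest level of the members at 55-70 h, *5-HT2alpha* locus 2 left aside. It had 16.7 and 17.4 against 2.79 and 5.27 FPKM at 10-15 h, 43.6 and 63.3 against 23.5 and 32.0 FPKM at 25-40 h, and 116.5 and 95.5 against 94.1 and 76.1 FPKM at 55-70 h. The changes were 2.06 (standard error 0.21, adjusted p = 7.77e-06) and 1.29 (standard error 0.21, adjusted p = 0.000446), called in each sex alone, and the ages do not overlap in either sex.

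**Figure D3:**
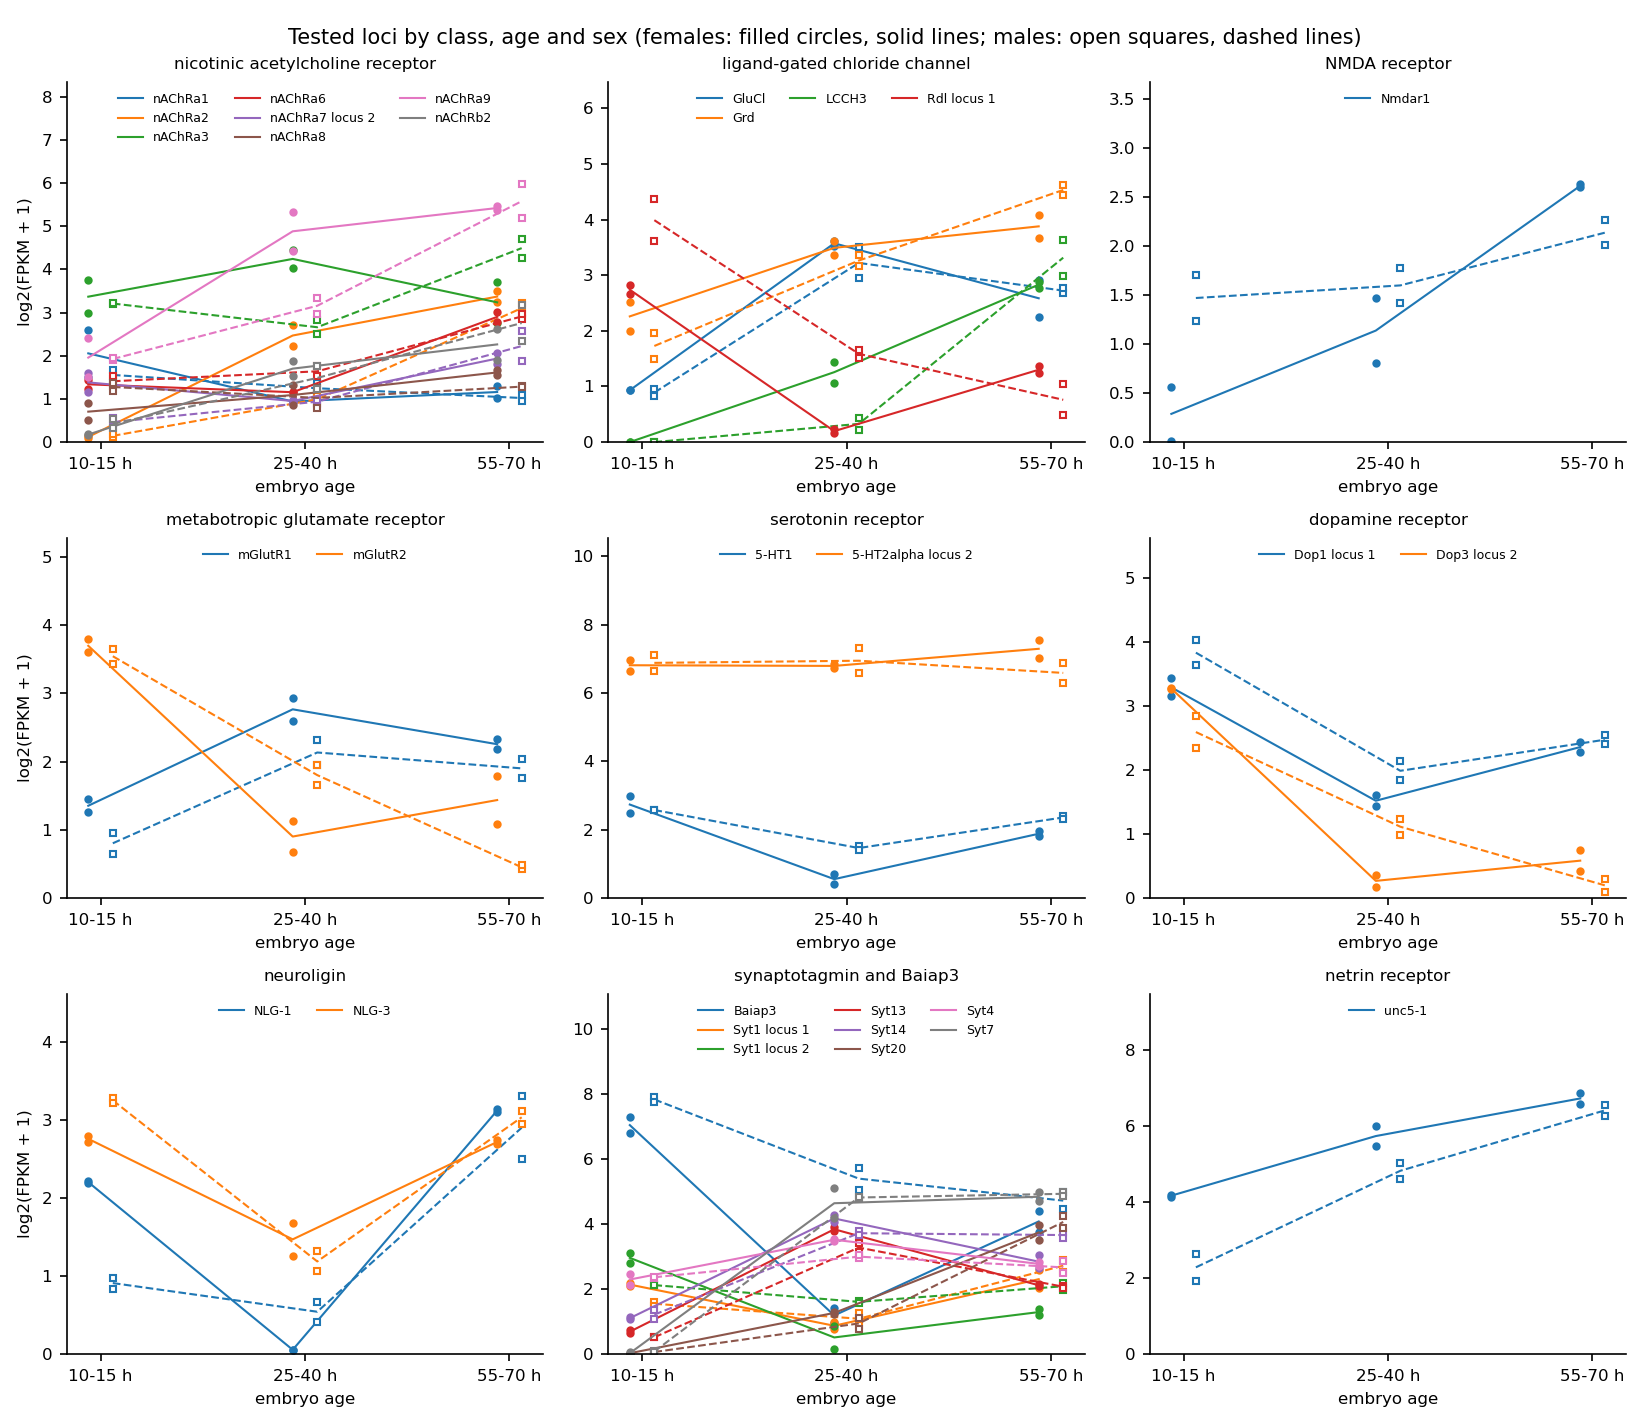
Levels of the 30 tested loci, as log2(FPKM + 1) on the vertical axes, against embryo age, 1 panel per class. Points are single libraries and lines join the group means, filled and solid for females and open and dashed for males. *NLG-1*, *NLG-3*, *5-HT1* and both *Syt1* loci dip at 25-40 h, *unc5-1*, *Grd* and *Syt20* climb through both steps, and the lines of *nAChRa3* cross between the sexes.

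The sexes were compared at each age as females minus males. Over all loci the median of this difference was -0.11 at 10-15 h and -0.19 at 55-70 h, and 0 and 0.0344 with median-ratio scaling. At 10-15 h 2 members were higher and 2 lower in females, 6.67% of the 30 each, against 1.84% and 7.23% of all loci tested. With median-ratio scaling 6 members were higher and 2 lower, and 751 of all loci higher and 1068 lower against 186 and 731 as deposited, and with quantile normalization 4 and 0 members and 316 and 471 loci. In all 4 cases called as deposited the libraries of the sexes do not overlap. With 2 libraries of each sex a call makes this likely, and it was not counted over all loci. *unc5-1* was higher in both female libraries by 1.89 (standard error 0.30, adjusted p = 0.0148), and *NLG-1* by 1.29 (standard error 0.28, adjusted p = 0.0247). *Rdl* locus 1 was lower in both by 1.25 (standard error 0.30, adjusted p = 0.0325), and *Nmdar1*, at 1.36 and 2.26 FPKM in males and at 0.477 FPKM or less in females, by 1.18 (standard error 0.31, adjusted p = 0.0443).

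Each of the 4 calls at 10-15 h was lost without some single libraries. Over all loci tested, most calls at this age were also lost without female library 2 or either male library of it. Such a loss is therefore not particular to the members. *unc5-1* was lost without female library 2 (adjusted p = 0.132), male library 1 (adjusted p = 0.141) or male library 2 (adjusted p = 0.0802) of that age. *NLG-1* was lost without any of its 4 libraries (adjusted p = 0.0665 to 0.183). *Rdl* locus 1 was lost without any of its 4 libraries (adjusted p = 0.103 to 0.231) or either female library of 55-70 h (adjusted p = 0.0501 each), and *Nmdar1* without its 4 libraries, both male libraries of 25-40 h or both female libraries of 55-70 h, each left out alone (adjusted p = 0.0558 to 0.301). *Rdl* locus 1 and *Nmdar1* were also lost with quantile normalization (adjusted p = 0.087 and 0.0589) and with no filter (adjusted p = 0.0594 and 0.0761), *Rdl* locus 1 with a pseudocount of 0.1 (adjusted p = 0.0698), and *NLG-1* and *Nmdar1* with a pseudocount of 5 (adjusted p = 0.06 and 0.106). With a fit of only the 4 libraries compared none was called, at adjusted p of 0.0692 to 0.112. That fit called 0 of all 10105 loci at this age.

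At 25-40 h 4 members were higher and 4 lower in females, 13.3% each, against 7.96% and 6.68% of all loci. The members higher in females were 3 nicotinic subunits, *nAChRa2* by 1.48 (standard error 0.25, adjusted p = 0.00353), *nAChRa3* by 1.58 (standard error 0.37, adjusted p = 0.0162) and *nAChRa9* by 1.72 (standard error 0.39, adjusted p = 0.0149), and the chloride channel subunit *LCCH3* by 0.93 (standard error 0.27, adjusted p = 0.0452). Those lower in females were *Baiap3* by 4.21 (standard error 0.33, adjusted p = 7.94e-05), *Rdl* locus 1 by 1.39 (standard error 0.30, adjusted p = 0.0116), *Syt1* locus 2 by 1.10 (standard error 0.27, adjusted p = 0.0228) and *5-HT1* by 0.91 (standard error 0.25, adjusted p = 0.0325). In each of these called members both female libraries lie on the same side of both male libraries, which was not counted over all loci. The largest gap was that of *Baiap3*, with at most 1.65 FPKM in females and at least 32.5 FPKM in males. The locus that joins LOC100577150 and *SP48* and overlaps *Baiap3* also had both female values below both male values at this age.

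*Baiap3* and *nAChRa2* stayed called without any single library, with adjusted p of at most 0.00201 and 0.0321. *nAChRa9* and *Rdl* locus 1 were lost without female library 2 (adjusted p = 0.123 and 0.0695) or male library 1 (adjusted p = 0.117 and 0.0841) of 25-40 h, and *nAChRa3* and *Syt1* locus 2 without these (adjusted p = 0.116 and 0.0667, and 0.149 and 0.117) or male library 2 (adjusted p = 0.0955 and 0.0761). *5-HT1* was lost without these 3 libraries or either male library of 10-15 h (adjusted p = 0.0633 to 0.166), and *LCCH3* without any of 9 libraries (adjusted p = 0.0557 to 0.228), namely all 4 of 10-15 h, female library 2 and both male libraries of 25-40 h and both female libraries of 55-70 h. *5-HT1*, *Rdl* locus 1, *Syt1* locus 2 and *LCCH3* were also lost with a pseudocount of 5 (adjusted p = 0.17, 0.149, 0.0774 and 0.258). *5-HT1* and *LCCH3* were lost with no filter (adjusted p = 0.0518 and 0.059). *LCCH3* was lost with quantile normalization and with the replicate number as a block (adjusted p = 0.0559 and 0.0669). With a fit of only the 4 libraries compared none was called, at adjusted p of 0.0595 to 0.118. That fit called 0 of all 10105 loci at this age.

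The male libraries of 25-40 h lay nearer to the youngest age than the female ones. Their root mean square distance from the mean of the 10-15 h libraries, on the log2 scale, was 1.61 and 1.76 over all loci tested and 1.56 and 1.66 over the 30 members, against 2.01 and 1.95, and 2.3 and 2.38, in the females. Their distance from the mean of the 55-70 h libraries was 1.72 and 1.64 over all loci, against 1.48 and 1.5 in the females, whereas over the members it was 1.37 and 1.31 against 1.33 and 1.38, so that over the members the sexes overlap in it. A difference between the sexes at this age and a difference in how far the embryos had developed cannot be told apart.

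At 55-70 h no member was called by limma, against 0.327% and 0.317% of all loci. At an unadjusted p under 0.05, 2 of the 30 members were higher and 4 lower in females, against 513 and 1381 of the 10105 loci tested. The differences ranged from -1.25 at *nAChRa3* (standard error 0.37, adjusted p = 0.137) to 0.98 at *mGlutR2* (standard error 0.29, adjusted p = 0.141) and did not pass the adjustment over all loci. Male library 1 of this age was low at some muscle loci, with troponin I at 261.5 FPKM against 587 to 756 FPKM in the other 3 libraries. It was the highest at *Twi* and *TpnCIIa* and within the range of the others at *nau* and both *Mef2* loci. Outside the muscle list it was also lowest at *Eth* (13.9 against 51.8 to 66.1 FPKM), though not at *nrv2* (63.1 against 28.9 to 93.9 FPKM). Without male library 1 no member was called at this age. All 45 age calls of the members were kept, as were 14 of the 17 calls between the sexes and 9 of the 11 in interactions of sex and age. Those lost were *nAChRa2*, *mGlutR1* and *Rdl* locus 1 averaged over the ages and *LCCH3* and *Syt14* in the late interaction.

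**Figure D4:**
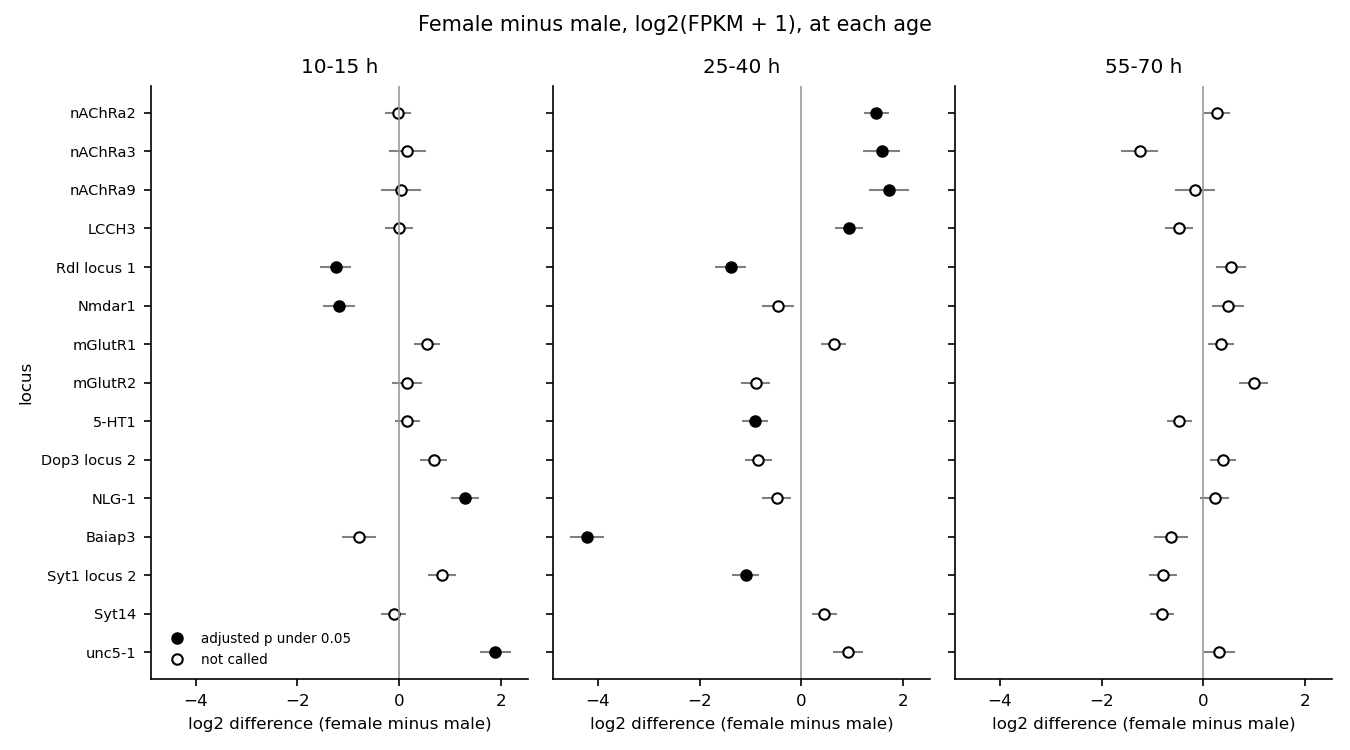
Female minus male difference of log2(FPKM + 1) at each age for the 15 loci called between the sexes or in an interaction of sex and age. Points are the differences, bars their standard errors, and filled points have an adjusted p under 0.05. At 10-15 h 4 points are filled and at 25-40 h 8, with *Baiap3* at -4.21, and none is filled at 55-70 h.

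The change with age differed between the sexes, by the interaction of sex and age, at 1 member upward and 4 downward in females relative to males in the early step, against 4.21% and 3.29% of all loci, and at 3 and 3 in the late step, against 2.95% and 5.54%.

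Averaged over the 3 ages, 3 members were higher and 2 lower in females, against 3.75% and 8.18% of all loci. *unc5-1* was higher by 1.04 (standard error 0.17, adjusted p = 0.0105), with higher values in both female libraries at every age, and it stayed called without any single library (adjusted p of at most 0.0411) and without the libraries of 25-40 h (adjusted p = 0.049). *nAChRa2* and *mGlutR1* were higher by 0.57 and 0.51 (adjusted p = 0.0337 and 0.0489), and *Baiap3* and *Rdl* locus 1 lower by 1.88 and 0.70 (adjusted p = 0.00155 and 0.0315). In the average over the outer ages alone these 4 were not called, at adjusted p of 0.683, 0.147, 0.0977 and 0.302. With no filter *nAChRa2*, *mGlutR1* and *Rdl* locus 1 were also lost (adjusted p = 0.0553, 0.0775 and 0.0565). *Rdl* locus 1 was lost with quantile normalization too (adjusted p = 0.0529). *mGlutR1* was lost with a pseudocount of 5 and with the replicate number as a block (adjusted p = 0.0633 and 0.0703). *Baiap3* kept its call without any single library. *nAChRa2* and *Rdl* locus 1 were lost without any of 10 libraries (adjusted p = 0.0582 to 0.103 and 0.0513 to 0.0942), all but female library 1 of 25-40 h and male library 2 of 55-70 h, and *mGlutR1* without any of 11 (adjusted p = 0.0622 to 0.145), all but female library 1 of 25-40 h.

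**Figure D5:**
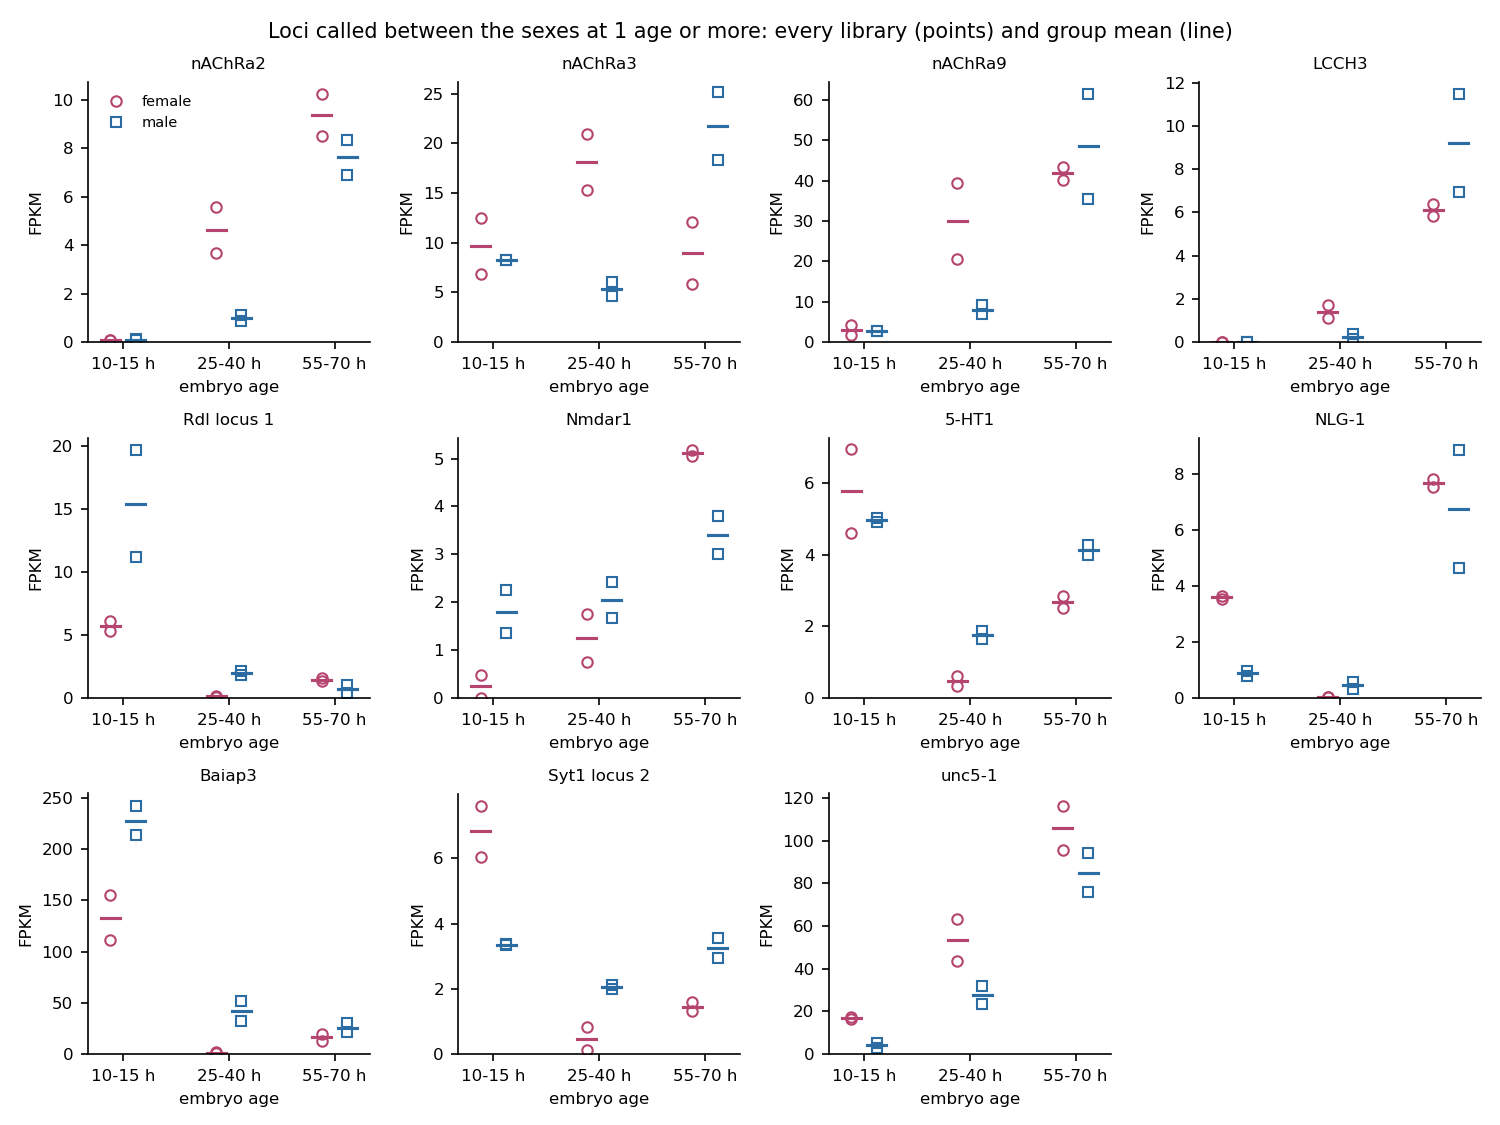
FPKM of every library at the 11 loci called between the sexes at 1 age or more, against embryo age. Circles are female and squares male libraries, and short lines are group means. The female and male points are apart at the ages where a call was made, and in *Nmdar1*, *nAChRa3*, *nAChRa9*, *LCCH3* and *Rdl* locus 1 the order of the group means of the sexes at 55-70 h is the reverse of that at the age of a call.

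Other genes of the same pathways were read from lists of symbols. Their counts stand against 47.6% of all loci higher and 23.6% lower in the early step and 36.4% and 19% in the late one. With 2 to 11 tested loci each, no list is called different from all loci. Among enzymes and transporters of acetylcholine, *AChE-2*, an acetylcholinesterase, fell in both steps (by 2.47 and 0.83), and *AChE-1* rose in the late one (by 0.96), from 4.35 to 17.4 FPKM at 25-40 h to 14.2 to 22.4 FPKM. Of 8 tested loci for amine and GABA enzymes and transporters, 5 rose and 1 fell early and 3 rose and 3 fell late, with *Ddc*, the aromatic amino acid decarboxylase, at 0.0222 to 0.0296 FPKM at 10-15 h and 2.77 to 6.65 FPKM at 25-40 h, and the GABA transporter *Gat-1B* rising by 1.32 and 1.82. Of 5 tested loci of the vesicle release machinery, 2 rose and 1 fell early and 3 rose and 1 fell late. Synapsin (*Syn*) rose late, with at most 0.261 FPKM at 25-40 h and 1.92 to 5.96 FPKM at 55-70 h, and *Caps*, which acts in dense-core vesicle release, fell by 1.63 and rose by 2.37.

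Of 11 loci for voltage-gated and other channels, 3 rose and 6 fell early and 4 rose and 3 fell late, with *Cac*, the alpha subunit of a calcium channel, going from 19.5 to 30.4 FPKM at 10-15 h to 0.465 to 1.19 FPKM at 55-70 h. Of 8 axon guidance and adhesion loci, 4 rose and 2 fell early and 2 rose and 1 fell late. *Dscam* rose by 2.89 and 3.31, from 0.863 to 1.04 FPKM at 10-15 h to 94.8 to 217 FPKM at 55-70 h. The counts early and late were 4 up and 1 down and 4 up and 0 down of 7 loci for neural precursor genes, 2 up and 1 down and 1 up and 2 down of 5 for neuronal identity genes, and 5 up and 1 down and 6 up and 3 down of 9 for neuropeptides and their receptors. Of markers of other cell types, both glial loci rose early and 1 of them late, 5 of 9 muscle loci rose early, and 7 rose and 2 fell late. In the tracheal, gut and epidermal list 2 and then all of 3 loci rose. These are 2 loci named *grh* on chromosome 5 and *Cht5*, and no other symbol of that list matched. Of the neuron markers listed, only *Syt1* matched a locus of a single name, and the glial markers *repo* and *gcm* matched none. Symbols were matched without regard to case, so that *hdc* on chromosome 15, a different gene, was counted in the amine list along with *Hdc* on chromosome 1. That list also counts loci named *Dat* on chromosomes 1 and 10, and the precursor list loci named *Dl* on chromosomes 4 and 11. These may not be the same gene, and the counts of these lists are not those of the named pathway alone. Other symbols were counted at more than 1 locus each. They are *SK*, *elk* and *pHCl* among the channels, *Rab3* in vesicle release, *N* and *neur* among the precursor genes and *Mef2* in muscle. The counts are therefore of loci and not of genes.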

How the data were processed

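Poly(A) RNA of pooled whole embryos was sequenced in 12 libraries, 2 for each sex at each of 3 ages. The authors aligned reads with TopHat2 and Bowtie2 2.2.6 and deposited FPKM per locus, with confidence bounds, from Cufflinks 2.2.1. The build was not given in the sources used, and read counts and depth are unknown. Values were read in Python 3.11.15 (pandas 2.3.3, numpy 2.4.6; plots in matplotlib 3.10.9). Loci whose mean reached 1 FPKM and whose status was valid throughout were fitted as log2(FPKM + 1) with 6 group means in limma 3.58.1 (R 4.3.3) with a variance trend, with Benjamini-Hochberg adjustment over 10105 loci. The procedure was tested on simulated data.

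The members and lists were chosen with earlier results of these data known. Library values are printed for members called between the sexes or in an interaction of sex and age, for up to 2 members of each class with the largest called change in each step, and for the member of highest mean in each class. Lists covered cholinergic and amine or GABA enzymes and transporters, vesicle release, channels, neuronal identity, neural precursors, axon guidance, neuropeptides, glia, muscle, and trachea, gut and epidermis. Alternatives were pseudocounts of 0.1 and 5, no filter, a filter of 5 FPKM, median-ratio scaling, quantile normalization, the midpoint of the bounds, no variance trend, only the libraries compared, a replicate block and each library left out. Each sex alone and the outer ages alone were added after seeing the data, as contrasts of the same fit of all 12 libraries.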

Additional observations from a re-analysis of the deposited data

Results flagged for a closer look

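The change with age differed between the sexes at 5 tested members from 10-15 h to 25-40 h and at 6 from 25-40 h to 55-70 h, by the interaction of sex and age in limma. Values are the change in females minus that in males on the log2(FPKM + 1) scale. In the first step 1 member had a positive and 4 a negative difference, against 4.21% and 3.29% of all loci tested, and in the second 3 were positive and 3 negative, against 2.95% and 5.54%. Both steps share the libraries of 25-40 h.

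*Baiap3* was called in both steps, at -3.421 (adjusted p = 0.00395) and 3.569 (adjusted p = 0.00295), and it and *nAChRa3*, at -2.837 in the second step (adjusted p = 0.0109), kept their calls without any single library and under every other setting tried on them. Between 25-40 h and 55-70 h *nAChRa3* fell in females and rose in males. *mGlutR2*, at 1.884 in the second step (adjusted p = 0.0216), was lost without male library 1 of 25-40 h (adjusted p = 0.0775). *Rdl* locus 1, at 1.93 in the second step (adjusted p = 0.0216), was lost without female library 2 of 25-40 h (adjusted p = 0.0615), male library 1 of 25-40 h (adjusted p = 0.0732) or female library 1 of 55-70 h (adjusted p = 0.08).

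In the first step *Syt1* locus 2 was at -1.934 (adjusted p = 0.0151) and was lost without female library 2 of 10-15 h, either male library of 10-15 h or male library 1 of 25-40 h (adjusted p = 0.0651 to 0.0702). *NLG-1*, at -1.78 (adjusted p = 0.0235), was lost without any library of 10-15 h or male library 1 of 25-40 h (adjusted p = 0.0555 to 0.106). *nAChRa2*, at 1.502 (adjusted p = 0.0296), was lost without any library of 10-15 h, female library 2 or either male library of 25-40 h (adjusted p = 0.0591 to 0.118), and *Dop3* locus 2, at -1.523 (adjusted p = 0.0341), without any library of 10-15 h, female library 2 or male library 1 of 25-40 h (adjusted p = 0.06 to 0.151). In the second step *LCCH3*, at -1.415 (adjusted p = 0.0484), was lost without any library but female library 1 of 25-40 h and male library 2 of 55-70 h (adjusted p = 0.0691 to 0.131), and *Syt14*, at -1.273 (adjusted p = 0.0441), without any but female library 2 of 55-70 h (adjusted p = 0.0566 to 0.155).

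Some of these calls were also lost under other settings. A pseudocount of 5 lost *NLG-1*, *nAChRa2*, *LCCH3*, *Rdl* locus 1 and *mGlutR2* (adjusted p = 0.112, 0.0674, 0.0911, 0.154 and 0.0695), and one of 0.1 *Syt14* (adjusted p = 0.0678). No filter lost *nAChRa2*, *LCCH3* and *Syt14* (adjusted p = 0.0504, 0.0618 and 0.0602), and a filter of 5 FPKM *Syt14* (adjusted p = 0.0527). Median-ratio scaling lost *LCCH3* and *Syt14* (adjusted p = 0.091 and 0.0779), and quantile normalization *nAChRa2* and *LCCH3* (adjusted p = 0.0849 and 0.0838). The fit of only the libraries compared lost *LCCH3*, *Syt14* and *mGlutR2* (adjusted p = 0.132, 0.127 and 0.066), and the replicate block *Dop3* locus 2, *LCCH3* and *Syt14* (adjusted p = 0.0555, 0.0715 and 0.0691).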

How the results depend on the processing

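With 2 libraries a group, 1 library can decide a call between the sexes, and the sex of the embryos, the kind of mother and the state of development cannot be told apart. Leaving out 1 library at a time gave 13 to 14 members higher and 10 to 11 lower in the early step, 16 to 17 and 3 to 5 in the late step, 0 to 3 and 0 to 2 between the sexes at 10-15 h, 1 to 5 and 1 to 5 at 25-40 h, 0 and 0 at 55-70 h, 1 to 4 and 1 to 4 averaged, 0 to 2 and 1 to 4 in the early interaction and 1 to 3 and 1 to 4 in the late one. All of the 45 age calls kept their call with a pseudocount of 0.1, no filter, the midpoint of the bounds and no variance trend, and the midpoint and no variance trend kept all 17 sex and 11 interaction calls as well. The cause was not tested for the changes that follow.

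With no filter the members higher early were 22, those lower in females at 10-15 h 0, those higher and lower in the average 1 and 1, those higher in the early interaction 0 and those lower in the late one 1. With a filter of 5 FPKM, which leaves fewer members tested, they were 8 higher and 3 lower early, 7 higher late, 1 and 0 at 10-15 h, 2 and 1 at 25-40 h, 1 and 1 averaged, 0 and 1 in the early and 1 and 1 in the late interaction. Quantile normalization gave 11 higher and 7 lower late, 4 and 0 at 10-15 h, 1 lower in the average and 0 higher in the early interaction. Median-ratio scaling gave 6 higher at 10-15 h and 1 lower in the late interaction, and the midpoint of the bounds 5 lower in the late interaction. A pseudocount of 0.1 gave 1 lower at 10-15 h, 7 lower at 25-40 h and 5 higher in the late interaction, and one of 5 gave 1 lower at 10-15 h, 1 lower at 25-40 h, 0 higher in the early and 1 higher in the late interaction. The fit of only the libraries compared gave 0 and 0 at 10-15 h, 0 and 0 at 25-40 h, 2 higher in the early and 1 lower in the late interaction. Between the sexes at 10-15 h and at 25-40 h it also called 0 of all loci tested. Males alone gave 7 lower early, and the outer ages alone 1 higher and 0 lower in the average.

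Directions that reversed were those of *nAChRa6* (-0.84), *nAChRa8* (-0.81) and *nAChRa7* locus 2 (-0.83) early, and *Syt1* locus 2 (-0.00704) and *Dop1* locus 1 (-0.0247) late, with quantile normalization, of *5-HT2alpha* locus 2 early with median-ratio scaling (-0.66), of *nAChRa3* late in females alone (-1.01), and of *Rdl* locus 1 (-0.83) and *Baiap3* (-0.68) late in males alone. An onset level of 5 FPKM gave 10 members at 10-15 h and 24 not reached in females, and 7, 8, 4 and 29 at the 3 ages and not reached in males, and median-ratio scaling 7 at 25-40 h and 12 not reached in females and 5 at 55-70 h in males.

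The replicate numbers do not pair the libraries, since over 15 pairs of groups same-numbered libraries correlated at -0.279 to 0.166. With the replicate block 45 of 45 age calls, 14 of 17 sex calls and 8 of 11 interaction calls were kept, with 1 member lower at 10-15 h and 1 lower in the late interaction.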

Other observations

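Loci that matched by symbol but are not members are given here as values. *Nrx-1*, a neurexin, the partner of neuroligins, had 9.79 and 10.9 FPKM in females of 10-15 h and is listed at 0 with a failed estimate in both male libraries of that age, then had 0.658 and 0.798 against 2.88 and 2.12 FPKM at 25-40 h and 10.3 and 8.04 against 7.6 and 7.99 FPKM at 55-70 h. The locus that joins LOC100576633 and *Octbeta2R*, an octopamine receptor, had 57.1 and 55.0 against 21.4 and 24.9 FPKM at 10-15 h, 1.86 and 1.09 against 6.61 and 5.32 FPKM at 25-40 h and 1.74 and 3.27 against 7.87 and 3.83 FPKM at 55-70 h. How reads of a joined locus divide between its genes cannot be told.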
